A study of Mus musculus with 6 samples.

Results

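The collapsin response mediator family is a set of 5 cytosolic phosphoproteins of neurons, encoded in the mouse by Crmp1, Dpysl2, Dpysl3, Dpysl4 and Dpysl5. The genes were chosen by name, and all 5 were found among the 15450 named genes of the study, on 12 of its 26691 transcript rows. Mouse retinal cells sorted as live and positive for Thy1, a surface protein of retinal ganglion cells, had their polyadenylated RNA sequenced. Eyes had received an adeno-associated virus (AAV) carrying Sox11, a transcription factor of developing neurons, or PLAP as the control cargo, labelled AAV-PLAP. All optic nerves, in both groups, had been crushed 3 days before the cells were taken, 2 weeks after virus injection in mice aged 3 to 4 weeks when the work began. Each group had 3 libraries (A, B and C), each a pool of 3 retinas from 3 animals, and the AAV-Sox11 and AAV-Control preparations of a letter were made on the same day.

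These proteins were first known as carriers of the growth cone collapse signal of semaphorin 3A, a repellent that reaches neurons through neuropilin and plexin receptors. They form tetramers, bind tubulin and other cytoskeletal proteins, and are switched by phosphorylation, with Cdk5, Gsk3b and the Rock kinases among the known ones. In the visual system they are strongly expressed while ganglion cell axons grow out, and Dpysl2 in particular is known to support axon growth by loading tubulin onto microtubules.

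The rows of Crmp1 and Dpysl4 differ in sequence, and the results below depend on which row is read. Crmp1 has its own start site for each of its rows, so both upstream sequences are shown, 250 bases each, from RefSeq's GRCm38.p6 table, on the plus strand. Capitals mark matches to ACAAAG on either strand, a core letter run of Sox factor motifs.
Upstream of Crmp1-202 (chr5:37241808-37242057): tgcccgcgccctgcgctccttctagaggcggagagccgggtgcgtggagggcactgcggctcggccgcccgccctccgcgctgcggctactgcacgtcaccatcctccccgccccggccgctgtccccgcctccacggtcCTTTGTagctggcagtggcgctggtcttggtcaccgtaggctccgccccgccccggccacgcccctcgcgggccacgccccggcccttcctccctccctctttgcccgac
Upstream of Crmp1-201 (chr5:37245514-37245763): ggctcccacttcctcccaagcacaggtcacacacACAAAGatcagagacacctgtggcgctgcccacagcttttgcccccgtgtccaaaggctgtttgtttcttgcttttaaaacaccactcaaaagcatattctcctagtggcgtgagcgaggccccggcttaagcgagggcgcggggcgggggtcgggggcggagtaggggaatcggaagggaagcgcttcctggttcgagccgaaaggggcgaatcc
The start site after the second sequence, at 37245764, is the first base of Crmp1-201 in GENCODE M21 (GRCm38). The first window ends shortly before the annotated start of Crmp1-202, at 37242080. It takes in the annotated start of the gene and of another coding transcript, Crmp1-209, at 37241940, so its later part lies inside the gene. ACAAAG occurred once in each, and in 16.5% of 32851 promoter windows of the same length. AACAAT, the other letter run searched on both strands, was in 9.42% of all windows and in neither of these. The table's window upstream of Dpysl5, not printed, held both letter runs, at a GC content of 62.8% with 17 CpG sites. The GC content was 75.6% upstream of Crmp1-202 and 59.6% upstream of Crmp1-201, with 30 and 16 CpG sites, against medians of 52.4% and 6 over all windows. A match is a description of letters only.

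The next sequences show what tells the rows apart in the RNA. Crmp1-202 and Crmp1-201 have 14 exons each, 12 of them identical, and join different first exons to the same second one, whose first 40 bases are in capitals. The lower-case letters are the last 39 bases of exon 1.
Crmp1-202: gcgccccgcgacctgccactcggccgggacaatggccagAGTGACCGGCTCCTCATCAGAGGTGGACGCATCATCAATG
Crmp1-201: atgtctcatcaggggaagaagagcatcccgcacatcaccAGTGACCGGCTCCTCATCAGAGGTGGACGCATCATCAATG
The row of Dpysl4 with the highest value, Dpysl4-206, keeps intron 4 of the coding transcript Dpysl4-201 (chr7:139092027-139093605, 1579 bases). Both RNAs have the same 30 bases at the end of exon 4, in lower case, and then differ, with the intron or exon 5 in capitals.
Dpysl4-206, into intron 4: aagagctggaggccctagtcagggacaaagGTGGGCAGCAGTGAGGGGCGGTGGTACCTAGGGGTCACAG
Dpysl4-201, into exon 5: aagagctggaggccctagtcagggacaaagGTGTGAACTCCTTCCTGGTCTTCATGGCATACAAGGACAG
No window of 50 bases was shared between annotated transcripts of different family genes or with Dpys, the dihydropyrimidinase relative of the family. Between rows of 1 gene, sharing was large. Only 11.7% of the 50-base windows of Crmp1-201, 15.9% of Crmp1-202, 10.6% of Dpysl3-202 and 5.29% to 39.1% of the Dpysl4 rows were absent from the gene's other rows. No source used here says how the authors divided reads among such rows, so values of single rows of these genes are uncertain to that extent. The exons of the Crmp1 rows shared 0 bases with those of Evc, a gene that overlaps Crmp1 on the opposite strand.

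Deposited whole-number values summed to between 10747985 and 11546892 per library. They are not plain read counts, since 1 direction across the libraries held no spread beyond rounding, most of its squared weight lying on AAV-Sox11 B (57.7%), A (18.4%) and C (12.5%). SDs and p-values, those of AAV-Sox11 above all, therefore lack part of the replicate spread. Sox11 itself had normalized values of 179.3, 233.7 and 283.6 in AAV-Sox11 A, B and C, against 131.1, 110.8 and 100.3 in the controls (limma adjusted p = 0.0504). Viral and endogenous transcripts were not told apart. Over all genes, 123 rose and 235 fell at an adjusted p under 0.05.

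Of the 5 family genes, 1 rose with AAV-Sox11, Dpysl3, and 0 fell, where 0.796% of all genes rose and 1.52% fell. Values of the groups did not overlap for 2 of the 5 genes, Dpysl3 and Dpysl4, both higher with AAV-Sox11, as in 16.2% of all genes. Dpysl2, Dpysl3 and Dpysl4 were higher in AAV-Sox11 in each same-day pair (28.4% of all genes), and Crmp1 and Dpysl5 were lower in each (24.3%). The median log2 fold change was 0.20 over the family and 0.03 over all genes. With 5 genes, these counts describe the members only.

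**Figure D1:**
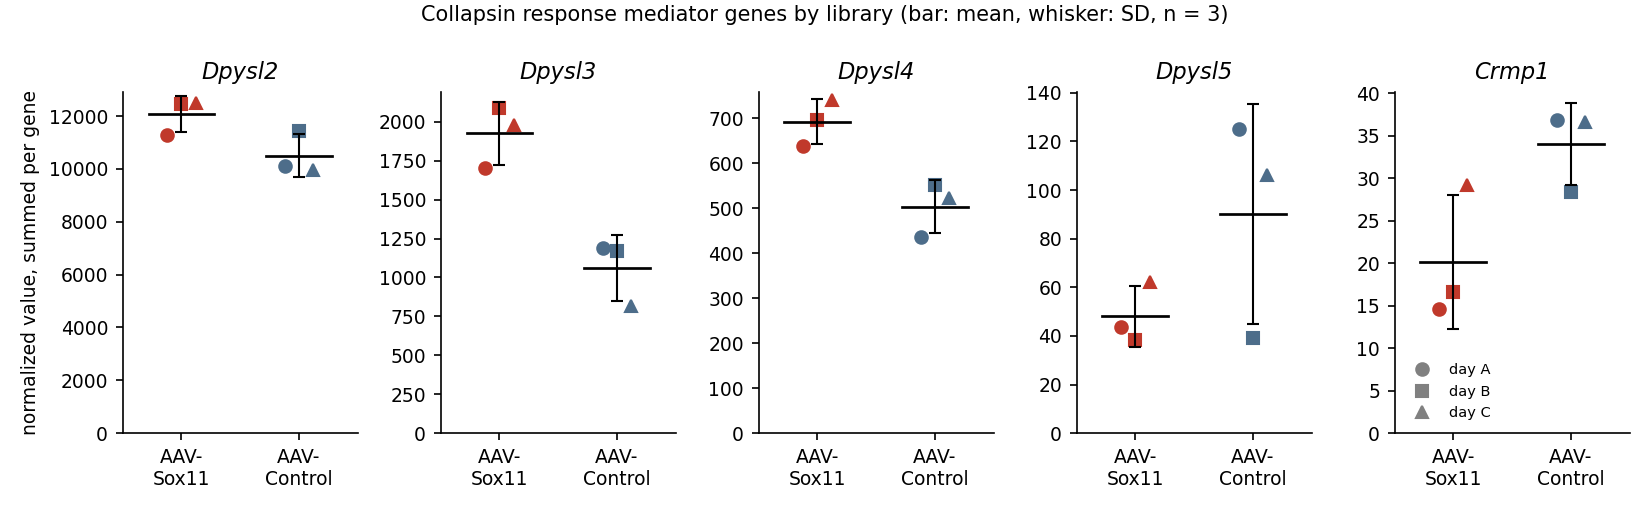
Normalized values of each gene, summed over its rows, by library, with AAV-Sox11 left and AAV-Control right in each panel; the horizontal bar is the mean, the whisker the SD over 3 libraries, and the symbol the preparation day. Dpysl3 and Dpysl4 have all AAV-Sox11 libraries above all controls, and Dpysl5 in control B (39.21) lies far under controls A and C.

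Dpysl3, also called CRMP4, is abundant in newborn neurons and growth cones, where it bundles actin filaments and binds microtubules. It had normalized values of 1703, 2091 and 1982 in AAV-Sox11 A, B and C, against 1192, 1171 and 817.2 in the controls. Every AAV-Sox11 library lay above every control, and control C was the lowest. The means were 1926 ± 200 with AAV-Sox11 and 1060 ± 211 in the controls (SD, n = 3 each). The log2 fold change was 0.88 ± 0.16 (SE, limma adjusted p = 0.0425), a rise of 1.84-fold, which ranked 57 among the 123 genes that rose. Within days A, B and C the log2 differences were 0.51, 0.84 and 1.28.

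The gene lies on the minus strand of chromosome 18 (43320984 to 43438286, GRCm38). Its value rested almost wholly on Dpysl3-204, the transcript with the farthest upstream start, 5479 bases long with 2049 coding bases. That row held 97.1% ± 1.0 of the gene's value with AAV-Sox11 and 97.7% ± 0.536 in the controls (SD, n = 3 each, exact permutation p = 0.5, two-sided). Dpysl3-204 rose as the gene did, at 1639, 2026 and 1946 with AAV-Sox11, against 1166, 1137 and 801.8 in the controls (log2 fold change 0.87 ± 0.16, SE, limma adjusted p = 0.0401 over all rows). It was the 1 family row of 12 that rose, and 0 fell, where 0.513% of all rows rose and 1.46% fell.

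The second row, Dpysl3-202, starts farther downstream and has 1704 coding bases, and 10.6% of its 50-base windows are its own. Its values were 64.63, 65.42 and 36.2 with AAV-Sox11, against 26.21, 34.32 and 15.43 in the controls, with no overlap. Its log2 fold change was 1.12 ± 0.35 (SE, limma adjusted p = 0.119, and 0.0363 with the day as a replicate block). In the authors' deposited table the false discovery rate was 0.000164 for Dpysl3-204 (log2 fold change 0.85) and 0.0251 for Dpysl3-202 (1.13). Both lay among the 1.93% of rows that were higher at a rate under 0.05 in that table. Dpysl3-201, a further annotated coding transcript, was not analysed here.

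The call of Dpysl3 did not survive every setting. An index of sex-linked transcripts, the mean of 4 Y-linked genes minus Xist on the log2 scale and centred over the libraries, was 0.18, -1.06 and -1.40 in AAV-Sox11 A, B and C and 0.23, 0.26 and 1.79 in the controls, so that AAV-Sox11 B and C had the lowest and control C the highest index. Dpysl3 had a log2 fold change of 0.48 when the fit held this index (limma adjusted p = 0.169), and of 0.88 when it held the direction that lacks spread (adjusted p = 0.0898). Fits that lacked AAV-Sox11 A, B or C gave adjusted p-values of 0.096, 0.187 and 0.129, and leaving out control A gave 0.0668, with log2 fold changes of 0.81 to 0.97. Without control B or control C it passed, at 0.0417 and 0.0341.

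Markers of several cell types moved with the groups too, and their part in the rise of Dpysl3 was not tested. In such bulk libraries, fewer cells of a type and less RNA per cell cannot be told apart. Of 11 retinal ganglion cell markers 10 were measured and none passed, 7 of them with positive log2 fold changes (median 0.48), with sums of 8367, 10591 and 10824 in AAV-Sox11 A, B and C and 10345, 9678 and 6901 in the controls. Pou4f2, a ganglion cell transcription factor, had the highest log2 fold change (1.47 ± 0.35, SE, limma adjusted p = 0.0669), with no overlap between the groups. Slc17a6, which loads glutamate into ganglion cell vesicles, had 0.99 ± 0.26 and the neurofilament Nefh 0.77 ± 0.16, also with no overlap, while Rbpms had 0.02 ± 0.24. The neurofilaments Nefl (-0.33 ± 0.19) and Nefm (-0.39 ± 0.22) were the lowest and overlapped between the groups. These markers were picked after their values were seen. The 7 rod and cone markers reported here all had negative log2 fold changes (median -0.72) and none passed. Of these, 2, Sag and Pde6b, were lower with no overlap, where 14.4% of all genes were. The 7 markers summed to 16644, 14513 and 10054 in AAV-Sox11 A, B and C, against 24595, 19916 and 14872 in the controls, lower with AAV-Sox11 within each day. All 6 measured bipolar cell markers had negative log2 fold changes, between Cabp5 (-1.17 ± 0.58) and Prkca (-0.06 ± 0.09), and none passed. These markers summed to 7170, 6809 and 6197 in AAV-Sox11 A, B and C, against 10357, 7477 and 7382 in the controls, with control A far above the rest. Of 8 measured amacrine markers 3 fell and 0 rose, where 1.52% of all genes fell, with sums of 15197 to 17515 with AAV-Sox11 and 16968 to 20081 in the controls. Those that fell were Slc6a9, a glycine transporter (-0.93 ± 0.18, limma adjusted p = 0.0481), Pax6, a transcription factor (-0.60 ± 0.08, adjusted p = 0.022), and Dab1, a reelin signalling adaptor (-0.76 ± 0.07, adjusted p = 0.0132). The other measured amacrine markers did not pass, 4 of them with positive log2 fold changes, the highest being Tfap2a (0.52 ± 0.27), which did not overlap between the groups. Muller glia and astrocyte markers (7 measured) summed to 10069, 9222 and 7767 in AAV-Sox11 A, B and C, against 17460, 7098 and 6938 in the controls. With AAV-Sox11 and in the controls, microglia markers (5) summed to 1869 to 2611 and 1783 to 4878. Oligodendrocyte markers (4) summed to 693 to 758 and 767 to 848, and endothelial markers (1) to 1664 to 1890 and 1421 to 3484. No gene of these glial, microglial and endothelial lists passed the threshold. Transcripts of other retinal cells were thus measured along with those of ganglion cells in the material sorted for Thy1. The pan-ganglion-cell marker Rbpms was measured at 40.22 to 42.75 with AAV-Sox11 and 34.73 to 57.29 in the controls.

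**Figure D2:**
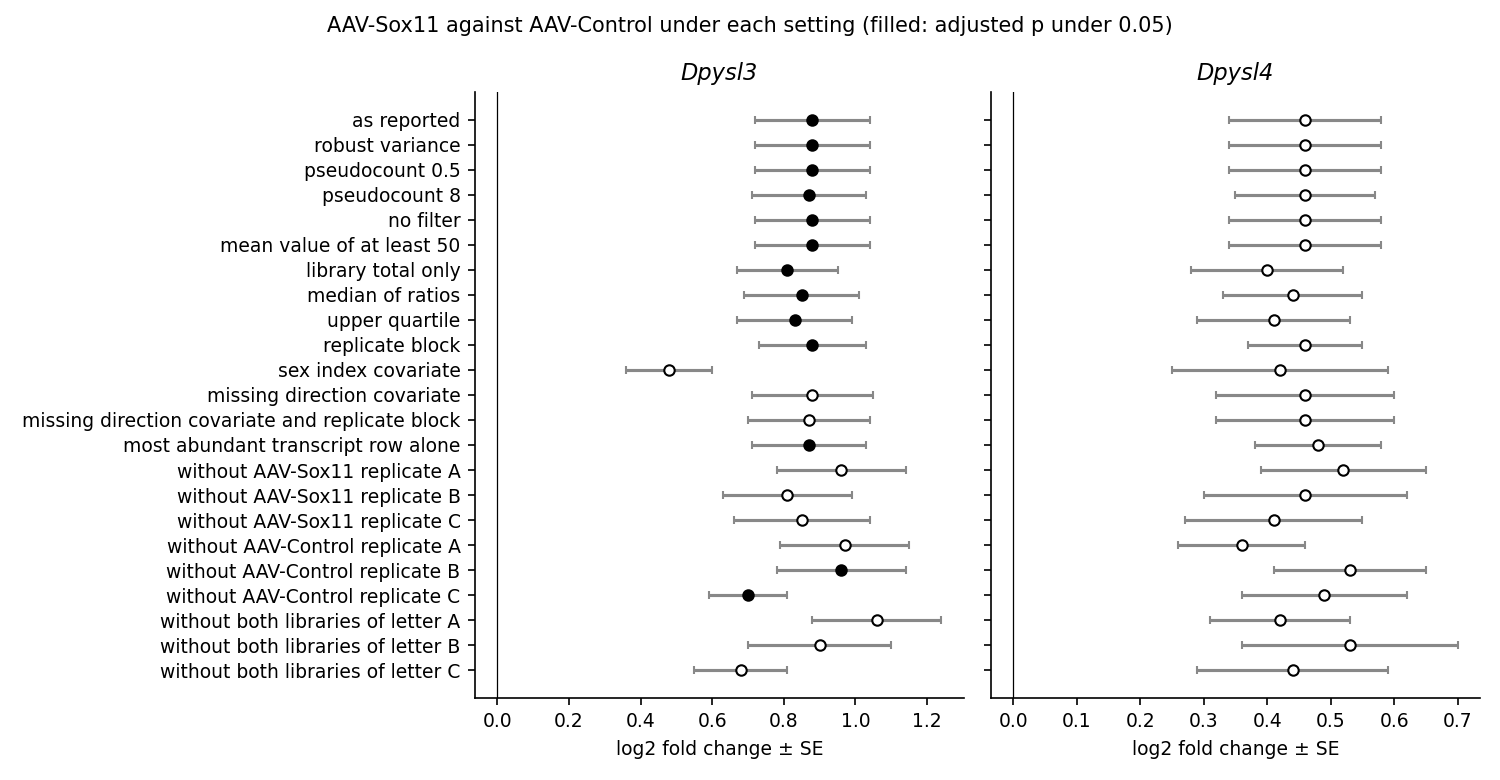
Log2 fold changes with SE of Dpysl3 (left) and Dpysl4 (right), AAV-Sox11 minus AAV-Control, under each setting; filled points have an adjusted p under 0.05. Dpysl3 stays above 0 throughout, between 0.48 and 1.06, and Dpysl4 lies between 0.36 and 0.53 with no setting past the threshold.

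Dpysl4, also called CRMP3, is the member best known from hippocampal and cerebellar neurons, where it shapes dendrites. Its values were 639.1, 696.8 and 740.1 in AAV-Sox11 A, B and C, against 436.9, 551.1 and 522.0 in the controls. The groups did not overlap. The log2 fold change was 0.46 ± 0.12 (SE, limma adjusted p = 0.0733), so Dpysl4 did not pass, and with the replicate block the adjusted p was 0.0507. Within days A, B and C the log2 differences were 0.55, 0.34 and 0.50.

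Most of the Dpysl4 value, which is not divided by length, came from rows annotated as keeping an intron. Dpysl4-206 and Dpysl4-203, which keeps intron 6 (chr7:139093842-139094393, 552 bases), together held 73.0% ± 2.95 of it with AAV-Sox11 and 73.8% ± 3.71 in the controls (SD, n = 3 each, exact permutation p = 0.9, two-sided). Those rows are long, Dpysl4-206 with 4196 bases and Dpysl4-203 with 3156, against 654 for the coding row Dpysl4-205. The share of Dpysl4 RNA molecules that keep an intron was not tested. Dpysl4-206 alone had 424.3, 440.3 and 450.5 with AAV-Sox11, against 296.1, 320.7 and 324.2 in the controls. The groups lay well apart, with a log2 fold change of 0.48 ± 0.10 (SE, limma adjusted p = 0.0559). Dpysl4-203 had 60.47, 70.62 and 67.37, against 44.65, 71.59 and 52.10, and overlapped between the groups (0.26 ± 0.21).

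Before division by length, each coding row of Dpysl4 was lower than the gene's highest row, which keeps an intron. Dpysl4-205 lay above the other intron-keeping row in every library. Dpysl4-205, a transcript of 654 bases, had 94.88, 118.4 and 146.8 with AAV-Sox11, against 57.27, 104.9 and 98.42 in the controls (log2 fold change 0.49 ± 0.27, SE, adjusted p = 0.322). Dpysl4-202 had 32.33, 46.73 and 56.31, against 17.47, 41.19 and 28.94 in the controls (0.66 ± 0.34). Dpysl4-201, the coding transcript of 1716 coding bases, had 27.10, 20.77 and 19.11, against 21.36, 12.74 and 18.33 in the controls (0.35 ± 0.28). All 5 rows thus had positive log2 fold changes and none passed. The authors' deposited table gave false discovery rates of 0.103 to 0.685 for those of Dpysl4.

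**Figure D3:**
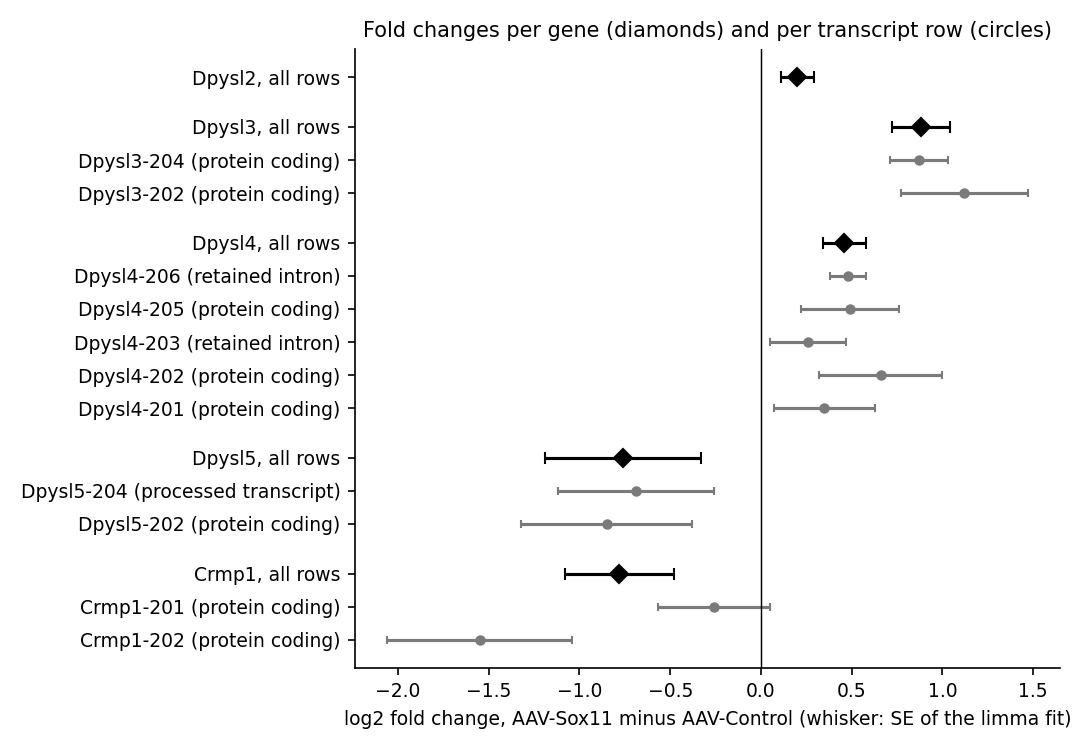
Log2 fold changes, AAV-Sox11 minus AAV-Control, with SE, for each gene over all rows (black diamonds) and each of its transcript rows (grey circles), with the annotated type in brackets. Rows of Dpysl3 and Dpysl4 lie above 0 and those of Dpysl5 and Crmp1 below 0, with Crmp1-202 (-1.55) farthest out.

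Dpysl2, also called CRMP2, is the founding member and the main tubulin carrier of the family. It was the most abundant, at rank 71 of 15450 genes by mean normalized value. AAV-Sox11 A, B and C had 11300, 12451 and 12490, against 10102, 11430 and 9955 in the controls, so that control B lay above AAV-Sox11 A. The log2 fold change was 0.20 ± 0.09 (SE, limma adjusted p = 0.204). It had 1 transcript row, Dpysl2-201, on the minus strand of chromosome 14 (66802864 to 66868688), with no annotated gene overlapping it.

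Differences between members were also tested, on the same values, so they do not stand apart from the results above. These tests were not among those planned. The log2 value of Dpysl3 minus that of Dpysl2 was -2.73, -2.57 and -2.66 in AAV-Sox11 A, B and C, against -3.08, -3.29 and -3.60 in the controls. The groups did not overlap, and the means differed by 0.67 (exact permutation p = 0.1, two-sided, the smallest that 3 against 3 allow). For Dpysl4 against Dpysl2 the groups differed by 0.26 (exact permutation p = 0.1), and for Dpysl3 against Dpysl4 it was 0.41 (exact permutation p = 0.3).

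Crmp1, a mediator of semaphorin 3A signals, was the least abundant member, with a mean lower than that of most genes (rank 13510). Its values were 14.62, 16.63 and 29.16 in AAV-Sox11 A, B and C, against 36.89, 28.43 and 36.66 in the controls. AAV-Sox11 C lay above control B, and the log2 fold change of -0.78 ± 0.30 (SE) did not pass (limma adjusted p = 0.172). Its rows differed. Crmp1-202 had 2.102, 4.165 and 13.07 with AAV-Sox11, against 15.53, 17.65 and 17.37 in the controls, with no overlap. Crmp1-201 had 12.52, 12.47 and 16.09, against 21.36, 10.78 and 19.30, with overlap.

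The log2 fold change was -1.55 ± 0.51 for Crmp1-202 and -0.26 ± 0.31 for Crmp1-201 (SE, limma adjusted p = 0.134 and 0.664). The authors' deposited table gave false discovery rates of 0.0419 for Crmp1-202, 1 of the 4.91% of rows lower at a rate under 0.05, and 0.693 for Crmp1-201. Crmp1-202, whose sequence starts in the longer coding exon (2058 coding bases, against 1716 in Crmp1-201), held 28.1% ± 15.4 of the gene's value with AAV-Sox11 and 50.5% ± 10.4 in the controls (SD, n = 3 each). The shares overlapped between the groups (exact permutation p = 0.2, two-sided), and AAV-Sox11 C, at 44.8%, lay above control A, at 42.1%. Both rows are close to the low end of the table. Of the 12 rows, 3 were higher with no overlap and 1, Crmp1-202, was lower with none, where 13.1% and 15.3% of all rows were. In each same-day pair 7 of the 12 rows were higher with AAV-Sox11 and 2 were lower, Crmp1-202 and Dpysl5-202, against 23.9% and 25.8% of all rows.

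Dpysl5, also called CRMP5, is the most divergent member and is known to counter the neurite growth that Dpysl2 promotes. It had 43.80, 38.44 and 62.34 in AAV-Sox11 A, B and C, against 125.2, 39.21 and 106.2 in the controls. Controls A and C stood above all other libraries, and control B lay among the AAV-Sox11 values. The log2 fold change was -0.76 ± 0.43 (SE, limma adjusted p = 0.32), and -1.27 without control B, where it passed at 0.0478. Its rows were Dpysl5-204, a processed transcript of 604 bases, and Dpysl5-202, a short transcript with 291 coding bases. Exons of Dpysl5-201 cover 61.6% of the length of Dpysl5-204 and 28% of that of Dpysl5-202. The long coding transcripts Dpysl5-201 and Dpysl5-203 were not analysed here, so these values cannot be taken to stand for the main coding RNA. Dpysl5-204 had 33.37, 31.16 and 50.28, against 106.8, 30.39 and 69.47 in the controls (log2 fold change -0.69 ± 0.43, SE), and Dpysl5-202 had 10.43, 7.279 and 12.07, against 18.44, 8.817 and 36.68 (-0.85 ± 0.47). The groups overlapped in both rows.

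Per length, only the top and the last place among the members were the same in every library. Each row's value was divided by its annotated length and summed per gene. Dpysl2 had 2670 ± 150 per kilobase with AAV-Sox11 and 2320 ± 180 in the controls (SD, n = 3 each), above all others in every library. Dpysl3 had 369 ± 35.7 and 202 ± 41.1, and Dpysl4 332 ± 47.2 and 241 ± 49.6. These neighbours did not differ beyond their spread in either group, and changed places among libraries. Dpysl5 had 70.9 ± 18.9 with AAV-Sox11 and 130 ± 67.8 in the controls, and in control A it lay above Dpysl4. Crmp1, with 6.82 ± 2.62 and 11.4 ± 1.67, was last in every library. For Dpysl4 and Dpysl5 these levels include RNAs that are not annotated as coding, and short rows weigh more per length.

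As a share of the summed per-length level, Dpysl3 made up 10.4%, 11.3% and 10.3% in AAV-Sox11 A, B and C, against 7.93%, 7.25% and 5.56% in the controls. The groups did not overlap (exact permutation p = 0.1, two-sided, the smallest possible). Dpysl2 held 77.5% ± 1.07 with AAV-Sox11 and 79.8% ± 1.62 in the controls (SD, n = 3 each, exact permutation p = 0.2). Dpysl4 held 9.58% ± 0.80 and 8.28% ± 1.57 (exact permutation p = 0.5), and Dpysl5 2.05% ± 0.476 and 4.57% ± 2.48 (exact permutation p = 0.3). Crmp1 held 0.196% ± 0.0655 with AAV-Sox11 and 0.396% ± 0.0777 in the controls, with no overlap (exact permutation p = 0.1, the smallest possible). The 5 genes together had 3185, 3551 and 3618 per kilobase with AAV-Sox11, against 2849, 3098 and 2772 in the controls (exact permutation p = 0.1).

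**Figure D4:**
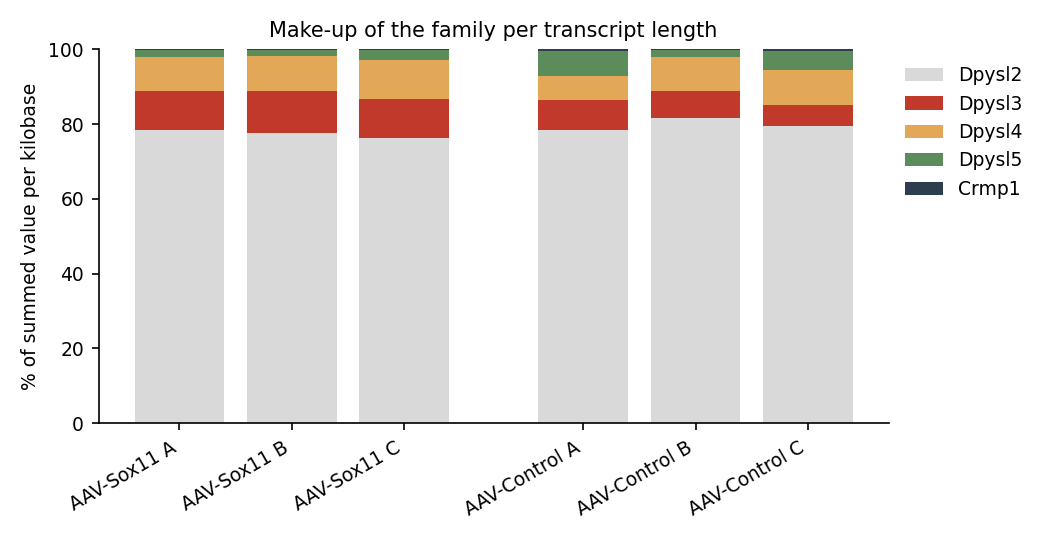
Share of each gene in the summed value per kilobase of the family (% on the vertical axis), one bar per library, AAV-Sox11 A, B and C left and AAV-Control A, B and C right. Dpysl2 holds 76.4% to 81.6% of every bar, and Dpysl3 holds 10.3% to 11.3% with AAV-Sox11 and 5.56% to 7.93% in the controls.

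Pathway genes around the family were read from lists of ligands, receptors, modifiers and partners. Of 4 measured class 3 semaphorin ligands none passed, and the median log2 fold change was 0.30. Sema3a, the ligand whose collapse signal named the family, had the highest (0.41 ± 0.29, SE) and Sema3f the lowest (-0.24 ± 0.30). Sema3b, Sema3c and Sema3d were not analysed here.

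Of 10 receptor genes 1 fell, Nrp2, a neuropilin that binds semaphorin 3F and its relatives, and 0 rose (median 0.31, against 0.03 over all genes, of which 1.52% fell and 0.796% rose). Nrp2 had 220.0, 219.1 and 221.2 in AAV-Sox11 A, B and C, against 368.0, 354.0 and 352.2 in the controls. The groups did not overlap, with a log2 fold change of -0.70 ± 0.10 (SE, limma adjusted p = 0.0201). The limma adjusted p was 0.128 with the sex index as a covariate and 0.0928 with the direction that lacks spread. The SD of Nrp2 with AAV-Sox11 was only 1.06, and those libraries lack part of the replicate spread. Nrp1, the neuropilin for semaphorin 3A, had 0.18 ± 0.09 (adjusted p = 0.278), named beside Nrp2 after its value was seen. Plxna1, a plexin that signals for neuropilins, had the highest value of the list (0.90 ± 0.30, adjusted p = 0.134).

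None of the 14 modifiers, kinases and phosphatases among them, passed (median 0.13). They ran from Cdk5r2, an activator of the kinase Cdk5, at -0.08 ± 0.21 to Rock1, a kinase that acts on the cytoskeleton, at 0.41 ± 0.11 (SE, limma adjusted p = 0.842 and 0.0792). Of 10 measured binding partners 1 fell and 0 rose (median -0.03), where 1.52% of all genes fell and 0.796% rose. Mical2, of a family of enzymes that oxidize actin and act downstream of plexins, had 1375, 1370 and 1364 with AAV-Sox11, against 2182, 1865 and 1855 in the controls. Its log2 fold change was -0.52 ± 0.09 (SE, limma adjusted p = 0.0331, 0.054 without control A and 0.0784 on its most abundant row alone). Wasf1, a subunit of the WAVE complex that nucleates actin, was the lowest at -0.97 ± 0.21 (adjusted p = 0.0569), and Numb, an endocytic adaptor, the highest at 0.40 ± 0.46. Mical1, Cacna1b and Scn9a were not analysed here.

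Of 13 measured neuronal microtubule proteins 4 rose and 0 fell (median 0.42, against 0.03 over all genes, of which 0.796% rose). All pathway lists were chosen with earlier results of these data known, so their counts describe the listed genes only. Map1b, a microtubule-associated protein of growing axons, had 42038, 49955 and 51164 in AAV-Sox11 A, B and C, against 27535, 27854 and 23020 in the controls. All AAV-Sox11 libraries lay above all controls, with a log2 fold change of 0.87 ± 0.12 (SE, limma adjusted p = 0.0201). Dclk1, a doublecortin-like kinase, had 967.5, 1104 and 880.9, against 406.8, 639.4 and 390.7 in the controls (1.07 ± 0.20, adjusted p = 0.0426). Dcx, the doublecortin of young neurons, had 272.1, 402.9 and 374.1, against 113.6, 128.5 and 66.57 in the controls (1.79 ± 0.27, adjusted p = 0.0247). Stmn2, a stathmin that binds tubulin in growth cones, had 742.3, 1034 and 1105, against 444.7, 571.7 and 381.1 in the controls (1.04 ± 0.20, adjusted p = 0.0447). Neither overlapped between the groups. Mapt, the tau protein of axons, was the lowest at -0.26 ± 0.07 (adjusted p = 0.0995). Stmn4 was not analysed here.

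With the sex index as a covariate none of these 6 called pathway genes passed, at adjusted p-values of 0.119 for Map1b, 0.128 for Dcx and Nrp2, 0.141 for Mical2, 0.203 for Stmn2 and 0.241 for Dclk1, where the log2 fold change of Dcx was 1.11 and that of Stmn2 0.57. None of the 6 passed with the direction that lacks spread as the covariate. Limma adjusted p-values were then 0.0626 for Dcx, 0.0652 for Map1b, 0.0896 for Dclk1, 0.0927 for Stmn2, 0.0928 for Nrp2 and 0.111 for Mical2. With each AAV-Sox11 library left out in turn, limma made 0 calls over all genes, with 1942 to 3120 genes at an unadjusted p under 0.05. Without control A, Map1b, Dcx, Dclk1 and Stmn2 missed at 0.056, 0.06, 0.0966 and 0.0985, and without control C, Dclk1 and Stmn2 missed at 0.0597 and 0.062.

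**Figure D5:**
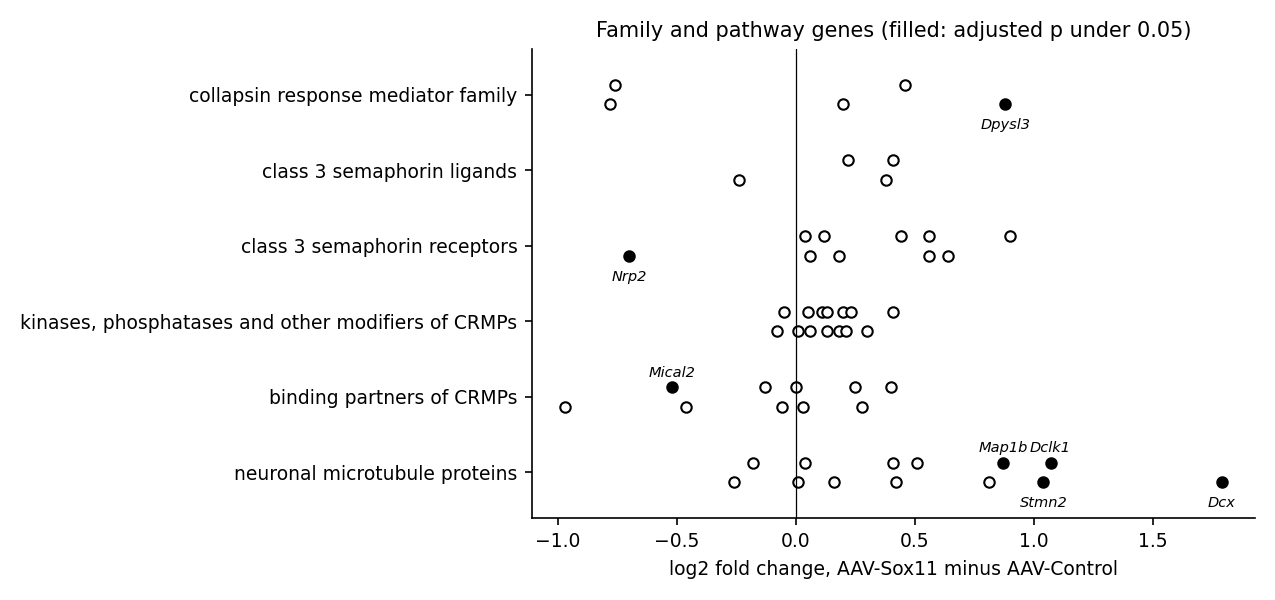
Log2 fold change, AAV-Sox11 minus AAV-Control, of each measured gene of the family and of 5 pathway lists, one point per gene; filled points have an adjusted p under 0.05 and carry the gene's name. Among microtubule proteins 4 of 13 are filled on the right, and Nrp2 and Mical2 are filled on the left.

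Genes whose values followed each member most closely over the 6 libraries were listed from those with a mean value of at least 100. Dpysl3 was most like Leprotl1 (Pearson r = 0.9987), Ide (0.9987) and Agtrap (0.9971). Dpysl2 was most like Tm2d2 (0.9998), Grhl3 (0.9988) and Sf3a1 (0.9988), and Dpysl4 most like Ddx6 (0.9983), Ppp2r3c (0.9974) and Drg1 (0.997). Crmp1 was most like Mast1 (0.9957), Imp3 (0.9937) and Pitpnm2os1 (0.9902), and Dpysl5 most like Gm15708 (0.9967), Crk (0.9925) and Golgb1 (0.991). With 6 libraries that vary in only 4 directions, such r are common by construction. For Dpysl3 alone, 287 of 9510 genes had an r above 0.95, and all points share their libraries and scaling.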

How the data were processed

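Sorted retinal cells of 3 AAV-Sox11 and 3 AAV-Control libraries were analysed. Build mm10, CASAVA 1.8.2 and edgeR (version not listed) are named, with no role, per the submitters' processing notes. Not given in the sources used here: aligner, counter, strand setting and annotation. Values came in 1 deposited table, with 26691 Ensembl transcripts as rows. Its whole-number columns are treated as a score, that is, adjusted values, since 1 direction across libraries had an SD of 9.48e-05 natural log units in 1177 abundant rows (the next smallest was 0.0871). Its normalized columns are a signal that the authors deposited, equal to the score times 0.9649 to 1.0425 per library. The authors' log2 fold changes, p-values and false discovery rates are named as theirs.

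Normalized values were summed per gene name to 15450 genes; 357 unnamed rows, between 0.422% and 0.517% of a library, were left out. Since the values are not read counts, the test was limma-trend (limma 3.58.1, R 4.3.3). It was fitted to log2(value + 1) by group alone, and p-values were adjusted over all genes by Benjamini-Hochberg (threshold 0.05). This scale understates changes of low genes. The minimum mean value of 1 removed no gene. The same fit was run on all rows. The limma script was also run on simulated data, whose spreads were taken from the fit to these same values. Such a run cannot recover the replicate spread that these values lack. Shares and differences between members were tested by exact permutation over libraries (scipy 1.17.1). Lengths, coordinates and exons come from GENCODE M21, whose build GRCm38 is mm10. Promoter sequences come from RefSeq's table, from which windows of Crmp1 and Dpysl5 were read. Windows on chromosome 18, where Dpysl3 lies, were not analysed here.

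Letters pair the libraries by preparation day, per the series description. Deviations from the group means correlated over genes at 0.00, 0.79 and 0.24 for A, B and C. Between libraries of different days they ran from -0.88 (AAV-Sox11 B and control C) to 0.20 (AAV-Sox11 A and control C). Deviations within a group are tied to each other by its mean, so no day effect was read from these values. The members and lists were chosen with earlier results of these data known. Named were all members and rows, pathway-list genes past the threshold, the highest and lowest of each pathway list, and the 3 genes most like each member. One cell marker gene is not reported here. A replicate block, other scalings, pseudocounts and filters, covariates and left-out libraries were tried.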

Additional observations from a re-analysis of the deposited data

How the results depend on the processing

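Signs of the 5 gene log2 fold changes were kept under every alternative run. Dpysl3 did not pass with the sex index (0.48), the missing direction (0.88), that direction with the replicate block (0.87), or without both libraries of A, B or C (1.06, 0.90 and 0.68), and the family then had 0 genes called higher. Leaving out 1 library gave 0.70 to 0.97 for Dpysl3, 0 to 1 family genes, and -1.27 to -0.45 for Dpysl5. Crmp1, Dpysl2 and Dpysl4 kept their side of the threshold throughout.

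Over all genes, 123 rose and 235 fell. The replicate block gave 323 and 414, and changed no call among the family genes. Block and direction together gave 63 and 69. The sex index and the missing direction gave 0 and 0, where limma had 2702 and 2582 genes at an unadjusted p below 0.05. Without both libraries of A, B or C there were 1, 1 and 0 higher and 0 lower, and 2993, 2017 and 3092 at an unadjusted p below 0.05. Leaving out 1 library gave 0 to 339 higher and 0 to 406 lower. Library totals gave 103 and 356 and upper-quartile scaling 100 and 355, so that 22.4% and 22.0% of calls were higher, against 34.4%. The most abundant row alone gave 109 and 196. Fits on fewer libraries or with a covariate have fewer residual degrees of freedom; the cause of each lost call was not tested otherwise.

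Crmp1 was not fitted at a minimum mean value of 50, which it does not reach. edgeR and DESeq2 were not run, since the values are not read counts. Depth cannot be read from adjusted values, so no counting interval is given, and the rows of Crmp1, at values of 2.102 to 21.36, are those where low values limit the result most.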
